A study of Mus musculus with 6 samples.

Results

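The 8 genes described here encode CXC chemokines, small secreted or membrane-bound proteins that guide leukocytes: Cxcl1, Cxcl2, Cxcl9, Cxcl10, Cxcl12, Cxcl13, Cxcl14 and Cxcl16. They were taken by symbol from a table of 23491 genes, and 8 of 8 had a row and passed the filter on low counts. Read counts came from microglia, the resident macrophages of the brain, enriched from mouse cerebellum by beads that bind CD11b, which monocytes and neutrophils carry as well. All mice were Fmr1 knock out, a model of fragile X syndrome, and a wild-type group was not analysed here. The control group of 3 libraries was labelled Saline in the treatment field and sham in the titles. The other 3 libraries came from mice given poly(I:C), a synthetic double-stranded RNA that mimics viral infection, by intraperitoneal injection. The age and sex of the mice, the dose, the interval to tissue collection and whether a library held 1 animal or a pool are unstated in these sources. The p-values therefore measure the spread between these libraries, which may be technical.

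Chemokines act through G protein-coupled receptors, and a chemokine's promoter largely sets which stimulus releases it. Cxcl9 and Cxcl10 are classical interferon-induced genes whose products attract activated T cells and natural killer cells through CXCR3. Cxcl1 and Cxcl2 are classical NF-κB targets whose products attract neutrophils through CXCR2. Double-stranded RNA receptors such as TLR3 feed both branches, through interferon regulatory factors and through NF-κB.

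Library totals ran from 33710545 to 34899835 counts, so a count of 3 equals 0.0860 to 0.0890 CPM, the usual unit of counts scaled to library size, before TMM scaling. Markers checked the label: of 9 microglial markers with a row, 0 were called by edgeR, with 0 at an unadjusted p under 0.05, and their summed level was between 28109 and 41545 CPM per library. Of the 9, 8 had a negative log2 difference, with a median of −0.19, and the lowest sum was in poly(I:C) replicate 1. Saline replicate 1 stood apart by 12 neutrophil markers, which summed to 21496 CPM whereas the rest of the saline group had 3666 and 3611 CPM and the poly(I:C) libraries 1778 to 3115 CPM. Csf3r, 1 of the 12, did not follow this pattern, with 945 to 1358 CPM per library. It held 1315 of the 1778 CPM in poly(I:C) replicate 2, so these sums understate how far the other markers differed. The neutrophil markers also differed in level between the groups: 12 of 12 had a negative log2 difference, with a median of −2.82. Of the 12, 5 lay entirely below saline, against 14.3% of all genes tested. EdgeR called 0 of these markers, 10 were lower at an unadjusted p under 0.05, and DESeq2 and limma-voom called 2 and 7 lower. Poly(I:C) replicate 1 stood apart by 10 choroid plexus markers, at 19505 CPM against 7697 and 9361 CPM in the other poly(I:C) libraries and 3999 to 8565 CPM in saline. In the remaining marker lists, 7 neuronal markers summed to between 0.52 and 2.67 CPM and 9 lymphocyte markers to between 6.68 and 40.8 CPM, and 7 monocyte markers summed to 2265 CPM in saline replicate 1 and to between 233 and 579 CPM elsewhere. In such bulk samples a change in the number of cells of a type and a change in RNA per cell cannot be told apart.

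The sequences just upstream of the start sites are shown for the interferon-induced pair, the NF-κB-type pair and Cxcl13, so that the response of each gene can be read beside its promoter. Each is the 250 bases before the RefSeq start (build GRCm38.p6, given 5′ to 3′ on the gene's strand; the counts were made on GRCm39), and 7 of the 8 members had an entry in that table. Capitals mark matches on either strand to the interferon-stimulated response element (ISRE, searched as GAAA repeated after a gap of 2 bases), the gamma-activated site (GAS, searched as TTCNNNGAA) or the NF-κB consensus. Overlapping NF-κB matches run together in the capitals.
Cxcl9, chr5:92328080-92328329, minus strand: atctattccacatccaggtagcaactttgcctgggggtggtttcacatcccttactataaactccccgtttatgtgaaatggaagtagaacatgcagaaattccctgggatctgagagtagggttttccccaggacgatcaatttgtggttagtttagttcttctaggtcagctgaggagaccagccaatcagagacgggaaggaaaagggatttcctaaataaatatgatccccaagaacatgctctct
Cxcl10, chr5:92348890-92349139, minus strand: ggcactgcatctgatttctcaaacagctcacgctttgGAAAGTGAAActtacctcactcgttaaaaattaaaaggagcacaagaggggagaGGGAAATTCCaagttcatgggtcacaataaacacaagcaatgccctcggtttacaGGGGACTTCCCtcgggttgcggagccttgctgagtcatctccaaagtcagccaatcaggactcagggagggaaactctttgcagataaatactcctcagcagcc
Cxcl1, chr5:90890995-90891244, plus strand: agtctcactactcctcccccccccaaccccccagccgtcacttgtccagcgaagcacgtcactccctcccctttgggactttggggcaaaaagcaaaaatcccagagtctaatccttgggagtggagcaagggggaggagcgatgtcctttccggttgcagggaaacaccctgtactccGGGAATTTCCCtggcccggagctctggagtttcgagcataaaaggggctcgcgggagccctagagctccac
Cxcl2, chr5:90903649-90903898, plus strand: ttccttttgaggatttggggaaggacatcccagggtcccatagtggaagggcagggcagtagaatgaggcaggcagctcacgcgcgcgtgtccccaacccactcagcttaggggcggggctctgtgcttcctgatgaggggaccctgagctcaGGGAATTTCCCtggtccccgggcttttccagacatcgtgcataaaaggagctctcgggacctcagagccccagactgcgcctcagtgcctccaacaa
Cxcl13, chr5:95956689-95956938, plus strand: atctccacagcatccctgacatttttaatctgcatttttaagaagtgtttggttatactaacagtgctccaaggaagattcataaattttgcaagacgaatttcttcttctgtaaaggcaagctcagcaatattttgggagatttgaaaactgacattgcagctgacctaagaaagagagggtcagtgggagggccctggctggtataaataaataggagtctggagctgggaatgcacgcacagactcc

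The Cxcl10 window held 1 ISRE match, GAAAGTGAAA, which starts 213 bases before the start site, and NF-κB matches at 2 places nearer to it. The windows of Cxcl1 and Cxcl2 each held the same NF-κB match, GGGAATTTCCC, which begins 71 bases before the start in Cxcl1 and 97 bases before it in Cxcl2. No ISRE match was found in either. Cxcl9 and Cxcl13 had no match to any of these 3 patterns in this window. The Cxcl14 window, not shown, held 1 ISRE match, GAAACAGAAA, 172 bases before the start and 1 GAS match, TTCTGAGAA, 191 bases before it; Cxcl14 did not pass the test. The Cxcl12 window held no match. Among 32851 promoter windows of the same length, 2.98% held an ISRE match, 7.02% a GAS match and 7.25% an NF-κB match, and 0.164% held both an ISRE and an NF-κB match as Cxcl10 did. These are matches of letters, with no measurement of binding.

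Cxcl9 rose with poly(I:C). Saline replicates 1 to 3 had 13, 30 and 6 counts, and poly(I:C) replicates 1 to 3 had 702, 214 and 349. Scaled by the TMM method, these were 0.40, 0.87 and 0.18 CPM against 19.9, 6.32 and 10.03 CPM. The lowest poly(I:C) library stood well above the highest saline library. Group means were 0.48 ± 0.35 CPM under saline and 12.1 ± 7.03 CPM under poly(I:C) (SD, n = 3 each), with a log2 fold change of 4.64 (SE 0.69, 95% interval 3.01 to 6.27, edgeR quasi-likelihood test with Benjamini-Hochberg adjustment over 14727 genes, adjusted p = 0.0360). By size it had rank 4 among all genes tested. The call was lost whichever 1 of the 6 libraries was left out, with adjusted p between 0.0503 and 0.143, while the log2 fold change lay between 4.10 and 5.39.

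Cxcl10 was higher in every poly(I:C) library than in every saline library but did not pass the test. Its saline counts were 244, 157 and 195, and its poly(I:C) counts 879, 386 and 519. In CPM the saline libraries held 7.42, 4.53 and 5.75 and the poly(I:C) libraries 24.95, 11.4 and 14.9. The groups did not overlap, and poly(I:C) replicate 1 was the highest library, as it was for Cxcl9. The saline mean of 5.90 ± 1.45 CPM and the poly(I:C) mean of 17.1 ± 7.03 CPM (SD, n = 3 each) gave a log2 difference of 1.54 (SE 0.33, 95% interval 0.74 to 2.33, edgeR adjusted p = 0.113). DESeq2 and limma-voom with quality weights called it higher, at adjusted p of 5.93e-04 and 0.0127, as did the edgeR fit without both replicate 1 libraries (adjusted p = 0.0211). Art3, on the opposite strand, shares 133 exon bases with Cxcl10, or 5.91% of its exon length in GENCODE M21, and had only 12 to 27 counts per library.

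**Figure D1:**
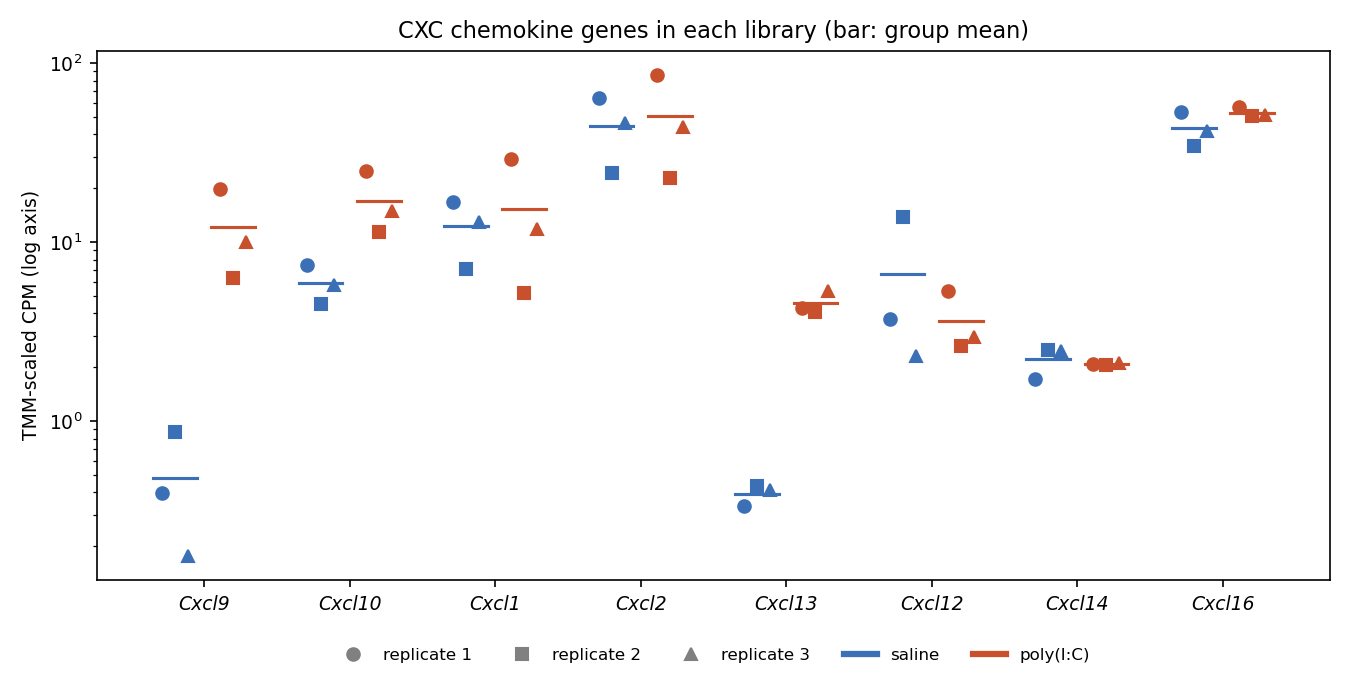
TMM-scaled CPM on a log axis for the 8 CXC chemokine genes, with 1 point per library (shape gives the replicate number, blue saline, orange poly(I:C)) and a bar at each group mean. For Cxcl9, Cxcl10 and Cxcl13 every poly(I:C) point lies above every saline point, while the groups overlap for the other 5 genes.

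The proportion of Cxcl9 to Cxcl10, both CXCR3 ligands, differed between the groups of libraries. For each Cxcl10 count the saline libraries had 0.0533, 0.191 and 0.0308 Cxcl9 counts. The poly(I:C) libraries had 0.799, 0.554 and 0.672. The groups did not overlap in this ratio, which needs no scaling between libraries. It compares read counts of genes of different length, so only its change between libraries can be read.

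Cxcl1 did not pass the test, and its libraries overlapped. The saline counts were 553, 246 and 442 and the poly(I:C) counts 1031, 176 and 412. Saline libraries thus held 16.8, 7.10 and 13.02 CPM and poly(I:C) libraries 29.3, 5.20 and 11.8 CPM, so that the poly(I:C) group held both the highest and the lowest library. The log2 difference was 0.33 (SE 0.61, 95% interval −1.12 to 1.78, edgeR adjusted p = 0.768). Without poly(I:C) replicate 1 the difference turned to −0.51 (adjusted p = 0.641).

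Cxcl2, the highest of the 8 per length by the mean of each group though not in every library, showed the same order of libraries. The saline counts were 2098, 849 and 1567, and the poly(I:C) counts 3037, 772 and 1538. Saline libraries thus held 63.8, 24.5 and 46.2 CPM and poly(I:C) libraries 86.2, 22.8 and 44.2 CPM, again with the highest and the lowest library both in the poly(I:C) group. The log2 difference was 0.19 (SE 0.52, 95% interval −1.04 to 1.42, edgeR adjusted p = 0.846), and it turned to −0.40 without poly(I:C) replicate 1 and to −0.11 without saline replicate 2. The intervals of both genes reach beyond a 2-fold difference in both directions, so equal levels in the groups are not shown. Cxcl2 and Cxcl1 had a count ratio between 2.95 and 4.39 in the 6 libraries. The longest stretch identical between their GENCODE M21 transcripts was 23 bases, whereas Cxcl2 shares 157 bases with Cxcl3, which had 0 to 20 counts per library.

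Set side by side, the interferon-induced pair differed between groups and the NF-κB-type pair did not separate them. The mean log2(CPM + 1) of Cxcl9 and Cxcl10 was 1.65 ± 0.14 in saline and 3.84 ± 0.65 in poly(I:C) (SD, n = 3 each), a difference of 2.19. For Cxcl1 and Cxcl2 the same mean was 4.54 ± 0.63 and 4.63 ± 1.04, a difference of 0.087. The first mean minus the second was −3.31, −2.16 and −3.19 for saline replicates 1 to 3, and for poly(I:C) replicates 1 to 3 it was −1.14, −0.35 and −0.86. All poly(I:C) libraries lay above all saline libraries on this scale, by 2.10 in the group means. The pairs were chosen with earlier results of these data known, so this is a description without a test. A ratio of single genes gave the same picture: there were 0.441, 0.638 and 0.441 Cxcl10 counts per Cxcl1 count under saline, and 0.853, 2.19 and 1.26 under poly(I:C).

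**Figure D2:**
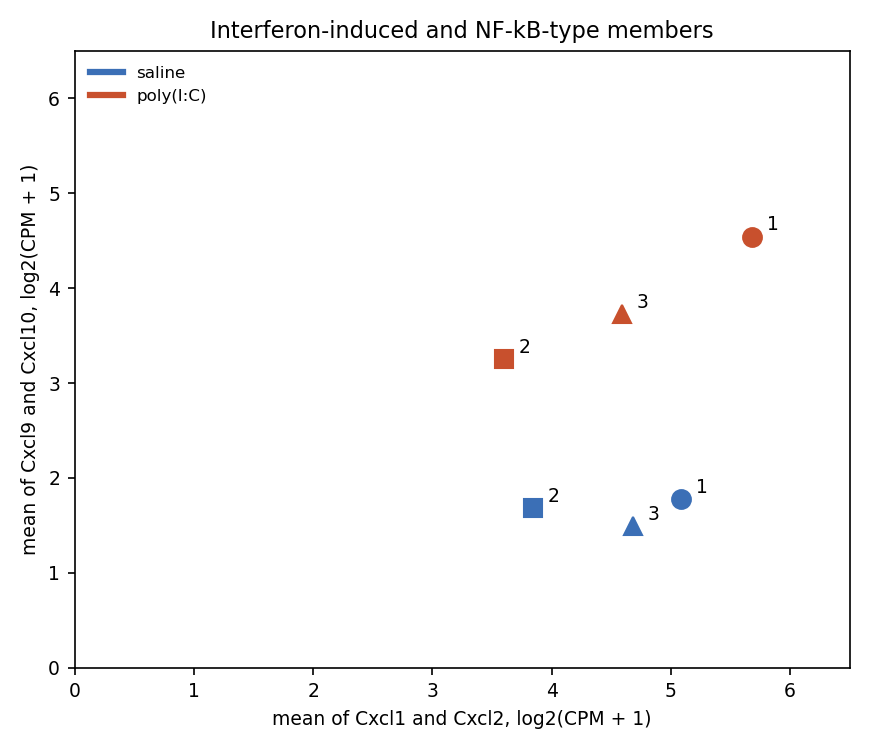
Mean log2(CPM + 1) of Cxcl9 and Cxcl10 (vertical axis) against that of Cxcl1 and Cxcl2 (horizontal axis), 1 numbered point per library, blue saline and orange poly(I:C). The groups separate along the vertical axis, from at most 1.78 in saline to at least 3.25 in poly(I:C), and overlap along the horizontal axis; genes are not scaled by length, so the axes cannot be compared with each other.

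Within the poly(I:C) group Cxcl1, Cxcl2, Cxcl9 and Cxcl10 were highest in replicate 1 and lowest in replicate 2. Replicate 1 was also the library with the highest sum of the choroid plexus markers, of which 9 of 10 had a positive log2 difference and edgeR called 0, with 8 higher at an unadjusted p under 0.05, DESeq2 calling 0 and limma-voom 2. The sum of 8 endothelial markers was 604 CPM there, against 267 and 274 CPM in the other poly(I:C) libraries and 183 to 395 CPM in saline. Of the 8, all had a positive log2 difference, with a median of 0.46. EdgeR called 0, 1 was higher at an unadjusted p under 0.05, and DESeq2 and limma-voom each called 1 higher. The 8 markers of border-associated macrophages, other CD11b-bearing cells of the brain, summed to 1121, 493 and 635 CPM in poly(I:C) replicates 1 to 3. In saline they summed to 677 to 1114 CPM. Sums of the neutrophil, monocyte, and pericyte and fibroblast lists were also highest in poly(I:C) replicate 1 and lowest in replicate 2 within that group. The microglial sum was instead lowest in replicate 1. In saline, Cxcl1, Cxcl2 and Cxcl10 were also highest in replicate 1 and lowest in replicate 2, while Cxcl9 was highest in replicate 2. The saline sums of choroid plexus, endothelial, and pericyte and fibroblast markers were highest in replicate 2, with 8565 CPM for choroid plexus and 395 CPM for endothelial markers. The neutrophil and monocyte sums were highest in saline replicate 1, and the border-associated macrophage sum was lowest in saline replicate 2. The part of any of these cells in the chemokine levels was not tested. For Cxcl9 the group difference without replicate 1 of both groups was 3.98 (adjusted p = 0.0186).

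Cxcl13, which attracts B cells through CXCR5, rose with poly(I:C) as well. Its libraries were less spread than those of Cxcl9, with an SD of 15.2% of the mean in the poly(I:C) group against 58.2%. Its saline libraries had 11, 15 and 14 counts, and its poly(I:C) libraries 151, 138 and 187. In CPM these were 0.33, 0.43 and 0.41 against 4.29, 4.08 and 5.37. Replicate 1, the highest poly(I:C) library for Cxcl9 and Cxcl10, was not the highest here. Group means were 0.39 ± 0.05 CPM under saline and 4.58 ± 0.70 CPM under poly(I:C) (SD, n = 3 each), an 11.5-fold difference (log2 3.53, SE 0.31, 95% interval 2.80 to 4.26, edgeR adjusted p = 0.00357). The call held in every fit that left out 1 library, with adjusted p between 0.00779 and 0.0415. Border-associated macrophages are among the other CD11b-bearing cells of the brain. Of 8 of their markers, 0 were called by edgeR, 1 was lower at an unadjusted p under 0.05, and DESeq2 and limma-voom called 1 and 2 lower. Among the 8, 6 had a negative log2 difference, and their sum overlapped between groups, with 677 to 1114 CPM for saline and 493 to 1121 CPM for poly(I:C).

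Cxcl12, a constitutive chemokine of stromal and vascular cells that signals through CXCR4, did not pass the test. Saline libraries had 123, 478 and 79 counts, or 3.74, 13.8 and 2.33 CPM. Poly(I:C) libraries had 189, 89 and 103 counts, or 5.37, 2.63 and 2.96 CPM. Saline replicate 2 alone set the direction: the log2 difference was −0.86 (SE 0.68, 95% interval −2.47 to 0.75, edgeR adjusted p = 0.467) with all libraries and 0.26 without that library (adjusted p = 0.762). That library also held 219 CPM of 8 pericyte and fibroblast markers, where saline replicates 1 and 3 held 70.0 and 78.7 CPM. Its endothelial, choroid plexus and astrocyte marker sums were the highest of the saline group as well, with 145 CPM of astrocyte markers against 105 and 108 CPM. Poly(I:C) replicate 1 held 178 CPM of the pericyte and fibroblast markers and 604 CPM of the endothelial markers, with Cxcl12 at 5.37 CPM. The part of those cells in the Cxcl12 level was not tested.

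Cxcl16 and Cxcl14 did not pass the test, and their intervals were narrower than those of Cxcl1, Cxcl2 and Cxcl12. Cxcl16, a membrane-anchored chemokine that binds CXCR6 and is released by ADAM proteases, had 53.5, 34.4 and 42.0 CPM under saline, and 57.1, 50.5 and 51.5 CPM under poly(I:C). Saline replicate 1 lay within the poly(I:C) range, so the groups overlapped, and the log2 difference was 0.29 (SE 0.16, 95% interval −0.097 to 0.68, edgeR adjusted p = 0.322). Zmynd15, on the opposite strand, shares 18.3% of the Cxcl16 exon length and had 198 to 363 counts per library against 1193 to 2013 for Cxcl16. Cxcl14, whose receptor is less settled, had 57, 87 and 84 counts under saline, and 74, 70 and 74 under poly(I:C), or 2.24 ± 0.44 and 2.10 ± 0.03 CPM (SD, n = 3 each). Its log2 difference was −0.094 (SE 0.29, 95% interval −0.78 to 0.59, edgeR adjusted p = 0.865).

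Of the 8 members, 2 were called higher and 0 lower, where 0.883% of all genes tested were called higher and 0.0747% lower. The poly(I:C) libraries lay entirely above the saline libraries for 3 members, against 14.0% of all genes tested, and 28.3% of all genes tested did not overlap in one direction or the other. The median log2 difference of the 8 was 0.31, and that of all genes tested was 0.0098. DESeq2 and limma-voom each called 3 members higher, Cxcl10 being the third, and 0 lower. At an unadjusted p under 0.05 in edgeR, 3 were higher and 0 lower. The members were put forward with these results known, so the counts describe them and are no test.

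**Figure D3:**
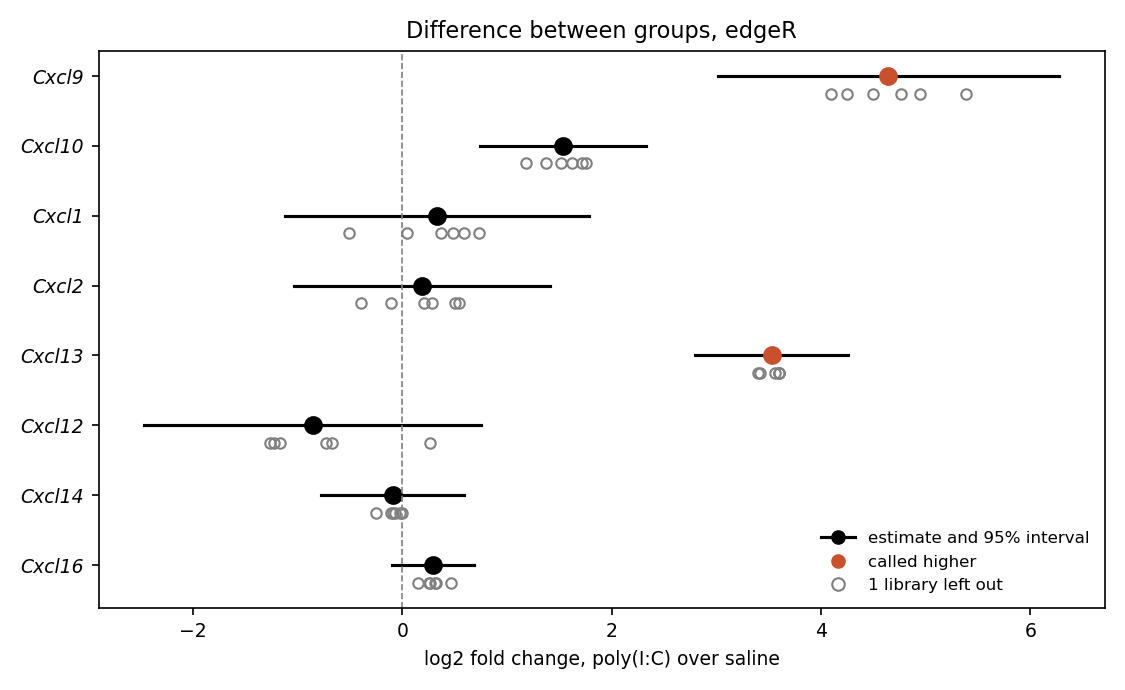
Log2 fold change of poly(I:C) over saline with its 95% interval for each member, orange where called higher, with open grey circles for the 6 fits that left out 1 library. Cxcl9 and Cxcl13 lie far from 0 in every fit, whereas Cxcl1, Cxcl2 and Cxcl12 have circles on both sides of it.

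Levels can be compared between members only per length, here as CPM per kilobase of all annotated exons in GENCODE M21. In saline, Cxcl2 (21.7, range 11.8 to 30.8) and Cxcl16 (14.3, 11.4 to 17.7) led and overlapped. They were followed by Cxcl1 at 6.57 and Cxcl10 at 2.62, whose ranges did not overlap, and then by Cxcl14 at 1.23, Cxcl12 at 0.81, Cxcl13 at 0.34 and Cxcl9 at 0.16. Of these, Cxcl12 overlapped both its neighbours in the order. In poly(I:C) the first 4 places were the same, and Cxcl9 (4.01, range 2.10 to 6.61) and Cxcl13 (3.98, range 3.55 to 4.67) took the fifth and sixth places with overlapping ranges. The ranges of Cxcl1 and Cxcl10 overlapped in poly(I:C), at 2.77 to 15.6 and 5.06 to 11.1. Cxcl9 moved from the last place to the fifth.

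Receptors of these ligands were sparse or variable. Of 9 CXC and atypical receptors, 5 passed the filter and 0 were called by edgeR, DESeq2 or limma-voom, against 0.957% of all genes called in either direction in edgeR. At an unadjusted p under 0.05, 1 was higher and 1 lower. Cxcr3, the receptor for Cxcl9 and Cxcl10, had 42 to 57 counts under saline and 25 to 33 under poly(I:C), groups that did not overlap (log2 difference −0.75, SE 0.34, edgeR adjusted p = 0.255). Cxcr2, the neutrophil receptor for Cxcl1 and Cxcl2, had saline counts of 3420, 572 and 554 and poly(I:C) counts of 663, 110 and 209, and Cxcr4, the receptor for Cxcl12, had 3453, 668 and 940 against 889, 368 and 556. Both were highest in saline replicate 1, the library with the most neutrophil marker counts, and their log2 differences of −2.28 and −1.54 had edgeR adjusted p of 0.230 and 0.238. Ackr1, an atypical receptor that binds chemokines on vessels and red cells, had saline counts of 31, 57 and 9 and poly(I:C) counts of 358, 67 and 71 (log2 difference 2.31, SE 0.88, edgeR adjusted p = 0.212). Cxcr5, the receptor for Cxcl13, had 0 to 10 counts per library and Cxcr6, the receptor for Cxcl16, 0 to 8, and neither was tested.

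The other CXC ligands were low apart from Pf4, a platelet and macrophage chemokine, with 27.7 ± 8.02 CPM under saline and 20.3 ± 3.40 CPM under poly(I:C) (SD, n = 3 each, log2 difference −0.45, edgeR adjusted p = 0.303). Cxcl3 (log2 difference −0.22, SE 1.14, adjusted p = 0.923), a close relative of Cxcl2, was tested. Cxcl5 had 0 to 18 counts and Ppbp 0 to 94, with the 94 in saline replicate 1, and neither was tested. Cxcl11, Cxcl15 and Cxcl17 had no row under these symbols and so were not analysed here. Among 9 genes for proteases and proteoglycans that shed, clip or hold chemokines, 1 was called higher, where 0.883% of all genes tested were: Sdc3, a heparan sulfate proteoglycan gene, rose from 169 ± 40.4 to 752 ± 40.1 CPM (SD, n = 3 each, log2 2.16, SE 0.18, edgeR adjusted p = 0.00281). At an unadjusted p under 0.05, 1 of the 9 was higher and 2 lower, DESeq2 called 1 higher and 0 lower, and limma-voom 2 higher and 1 lower. Mmp9 and Mmp8, metalloproteinase genes named after seeing their values, had log2 differences of −2.48 (SE 0.80, edgeR adjusted p = 0.181) and −2.47 (SE 1.04, edgeR adjusted p = 0.234), and both were highest in saline replicate 1. Mmp8 is also among the neutrophil markers. The genes for the sheddases of Cxcl16, Adam10 and Adam17, named after seeing their values, had estimates of 0.13 and 0.17 on the log2 scale (edgeR adjusted p = 0.421 and 0.312).

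Upstream, 3 genes of the interferon list rose, and 1 of the double-stranded RNA and NF-κB list, Tlr3, whose product feeds both branches. Of all genes tested, 0.883% were called higher and 0.0747% lower in edgeR. Of 15 tested genes from the list of interferon receptors, their JAK-STAT signalling and interferon regulatory factors, 3 were higher and 0 lower, with a median log2 difference of 0.033. These were Irf7 (log2 3.97), which amplifies interferon signalling, and Stat2 (log2 1.73) and Irf9 (log2 1.15), transcription factors of the type I interferon response. At an unadjusted p under 0.05 in edgeR 4 of the 15 were higher and 2 lower, DESeq2 called 4 higher and 0 lower, and limma-voom 4 higher and 1 lower. The higher gene that edgeR did not call was Irf1 (log2 0.52, edgeR adjusted p = 0.121). The poly(I:C) libraries lay entirely above the saline libraries for 5 of the 15, against 14.0% of all genes tested. They lay entirely below for 3, Ifngr1, Ifngr2 and Jak1, against 14.3%. Irf1 and these 3 were named after seeing their values. The interferon genes themselves, chosen after their values were seen, were scarce: Ifnb1 had 13 to 36 counts per library (edgeR adjusted p = 0.747), and Ifng, with 0 to 8, was not tested. In the list of double-stranded RNA and NF-κB pathway genes, 1 of 15 was higher and 0 lower in edgeR, with a median of −0.11. At an unadjusted p under 0.05, 4 were higher and 5 lower, DESeq2 called 1 higher and 1 lower, and limma-voom 3 higher and 5 lower. The poly(I:C) libraries lay entirely below the saline libraries for 5 of the 15, against 14.3% of all genes tested. These were the NF-κB subunit genes Rela, Relb, Nfkb1 and Nfkb2 and the TNF receptor gene Tnfrsf1a, named after seeing their values. The poly(I:C) libraries lay entirely above for 6, against 14.0% of all genes tested. These were another subunit gene, Rel (log2 0.36, edgeR adjusted p = 0.169), and Tlr3, Tlr4, Il1r1, Chuk and Ikbkg, also named after seeing their values. The called gene was Tlr3, a double-stranded RNA receptor, at 89.2 ± 5.24 and 179 ± 19.8 CPM (SD, n = 3 each, log2 1.00, SE 0.10, edgeR adjusted p = 0.00732).

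Targets and feedback genes of NF-κB gave 0 calls among 17 tested in edgeR, where 0.957% of all genes tested were called in either direction. Their median log2 difference was 0.25. At an unadjusted p under 0.05 there were 2 higher and 2 lower, DESeq2 called 2 higher and 1 lower, and limma-voom 3 higher and 1 lower. The smallest p in this list belonged to Il1a and Nfkbie, at log2 differences of 0.78 (adjusted p = 0.154) and −0.31 (adjusted p = 0.155). Ccl2, a monocyte chemokine, followed at 0.87 (adjusted p = 0.194), and Tnfaip2 at −1.13 (adjusted p = 0.220). No test compared the branches with each other.

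**Figure D4:**
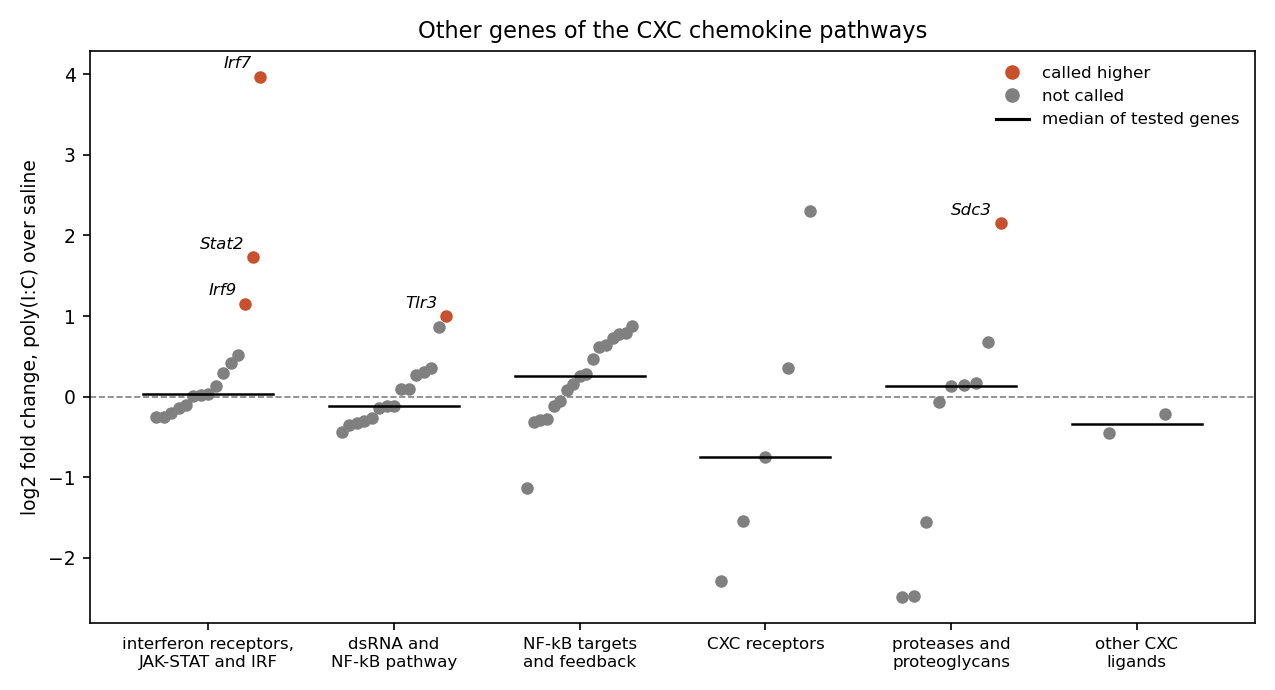
Log2 fold change of poly(I:C) over saline for each tested gene in 6 lists related to CXC chemokines, in order within a list, orange and named where called higher, with a bar at the list median. The called genes are 3 of 15 in the interferon list, 1 of 15 in the double-stranded RNA and NF-κB pathway list (Tlr3), 1 of 9 among proteases and proteoglycans and 0 in the others. Of all genes tested, 0.883% were called higher.

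Genes whose pattern over the 6 libraries lay nearest to each member were found by the root-mean-square distance between centred log2(CPM + 1) values. Nearest to Cxcl9 were Apod (0.25), Phf11a (0.28) and Ifit1 (0.29), and Cxcl10 lay nearest to Gdap10, P2ry14 and Ccl12, all at 0.16. Cxcl13 lay nearest to Irgm1 and Slfn8, both at 0.14, and to Trim34b at 0.16. The edgeR log2 differences of these 3 were 1.90, 1.87 and 1.80, against 3.53 for Cxcl13. The added 1 CPM shrinks the differences of genes at low levels, such as Cxcl13 at 0.39 CPM in saline, so nearness here does not mean an equal fold change. For Cxcl1 the nearest were Bmp2 (0.18), Clec4n (0.19) and Fam111a (0.21), and for Cxcl2 they were Ms4a7 (0.17), Fam111a (0.18) and Clec4n (0.18). Cxcl1 and Cxcl2 lay 0.14 from each other, nearer than either lay to any of these, and both lay at least 0.708 from Cxcl9 and Cxcl10. Among the members, Cxcl10 lay nearest to Cxcl13 (0.508) and Cxcl16 (0.579), then to Cxcl2 (0.708) and Cxcl1 (0.742), and 0.918 from Cxcl9. The member nearest to Cxcl9 was Cxcl13 (0.712). Values were centred but not scaled, so these distances also hold the size of each gene's difference between groups. Ms4a7 is also among the border-associated macrophage markers. Cxcl12 had Cacna1c (0.15), Acsbg1 (0.26) and Gpr37l1 (0.29), Cxcl14 had Dnmt3a (0.026), Tfcp2 (0.036) and Katnal1 (0.040), and Cxcl16 had Ctbs (0.055), Exoc6 (0.058) and Mtrf1 (0.068). Members that vary little have small distances to many genes. All points share the same 6 libraries, and so the same depth and mix of cells.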

How the data were processed

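The authors deposited raw read counts per gene symbol, 1 column per library, neither normalised nor pooled. Per the labels' protocols, SMARTer amplification of full-length cDNA preceded Nextera XT, so counts are of amplified reads. The submitters' processing notes name fastp, HISAT2, HTSeq and build GRCm39. Their versions, annotation and strand mode are unstated in these sources. The Nextera XT libraries do not mark strand, so opposite-strand neighbours cannot be separated.

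Counts were fitted with edgeR 4.0.16 in R 4.3.3: filterByExpr within groups (14727 of 23491 genes kept), TMM scaling, and the quasi-likelihood F test over all 6 libraries, without covariates. A call needed an adjusted p (Benjamini-Hochberg, all genes tested) under 0.05. SE is the absolute log2 fold change over the square root of F. Members and lists were chosen with earlier results of these data known. Named genes are the members, called genes of each list or, where none was called, up to 4 with the smallest p, and the 3 nearest patterns among genes averaging 1 CPM or more. Receptors and other ligands are also given by counts. 1 gene of the interferon list is not reported here. Replicates differed by more than counting noise (chi-square per gene of at least 22.7), so none was treated as a duplicate. Alternatives included scaling by RLE, by the upper quartile or by totals alone, omitting the filter, a filter of 5 CPM in 3 libraries, DESeq2 1.42.0, limma-voom (limma 3.58.1) with quality weights, a replicate block, and leaving out libraries, and a pseudocount of 0.25 CPM.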

Additional observations from a re-analysis of the deposited data

How the results depend on the processing

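Cxcl13 stayed called higher in all 14 alternatives that tested it, and the filter of 5 CPM removed it and left 1 member called. Leaving out 1 library gave 1 called member each time. The Cxcl9 log2 fold change then ranged from 4.10 to 5.39 and no such fit called it, but the fit without both replicate 1 libraries did (3.98). Cxcl10 passed in DESeq2 (1.51), limma-voom (1.46), the replicate block (1.49) and without both replicate 1 libraries (1.38). Cxcl1 ranged from −0.51 to 0.74 and Cxcl2 from −0.40 to 0.54 with 1 library left out, and they stood at −0.22 and −0.053 without both replicate 1 libraries. Cxcl12 ranged from −1.27 to 0.26 with 1 library left out, its sign turning only without saline replicate 2 (0.26), and was −1.51 without both replicate 1 libraries. The Cxcl2 sign turned without saline replicate 2 (−0.11) and without poly(I:C) replicate 1 (−0.40), and the Cxcl1 sign without the latter (−0.51). The interferon-induced minus NF-κB-type difference ranged from 1.89 to 2.47 with 1 library left out and was 2.66 with a pseudocount of 0.25 CPM.

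Over all genes, 130 were higher and 11 lower in edgeR. DESeq2 gave 577 and 566, limma-voom 1268 and 1608, and the fit without both replicate 1 libraries 355 and 214. With 1 library left out, 51 to 167 were higher and 0 to 20 lower, the 0 coming without saline replicate 3 (where 1913 genes, counting both directions, had an unadjusted p under 0.05) and without poly(I:C) replicate 3 (1831 genes). No filter gave 18 lower genes. The titles number replicates 1 to 3 in both groups. Deviations from the group means of same-numbered libraries correlated at 0.17, −0.063 and 0.27 across genes, so the numbers were not taken as pairs, and not every library correlated best with its own number. Cxcl1, Cxcl2, Cxcl10 and Cxcl16 did run from replicate 1 through 3 to 2, high to low, in both groups. With the replicate block 171 genes were higher and 89 lower, and the Cxcl9 value was 4.66 (edgeR adjusted p = 0.0567), Cxcl10 1.49 (adjusted p = 0.0262). The block lowered the SE of Cxcl1 from 0.61 to 0.27, of Cxcl2 from 0.52 to 0.13 and of Cxcl10 from 0.33 to 0.17. It was also lower for Cxcl16, and higher for Cxcl9, Cxcl13 and Cxcl14. The log2 differences of Cxcl1 and Cxcl2 were then 0.081 and 0.092. Counts of 6 to 30 for Cxcl9 and 11 to 15 for Cxcl13 in saline limit the precision of their fold changes. The causes of these changes were not tested.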
